A study of Mus musculus with 6 samples.

Results

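The presynaptic release machinery was taken as 34 listed genes, all found among the 49671 genes of the gene-level table, with 168 of the 123063 transcripts of the transcript-level table. They fall into 7 roles, namely synapsins, other vesicle membrane proteins, SNAREs, SNARE regulators and chaperones, Rab3 proteins with an effector, active zone proteins and vesicular glutamate transporters. The genes were listed by name, with no threshold on their measured values. All 34 genes passed the filter on low counts.

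Transmitter release needs vesicles loaded with transmitter, a docking site at the presynaptic membrane and a fusion machine. Vesicular transporters fill the vesicle, synapsins hold vesicles in reserve, and Rab3 GTPases with active zone scaffolds bring them to the membrane. There, the vesicle SNARE synaptobrevin zips together with syntaxin and SNAP25 on the plasma membrane. Complexins bind the assembled complex, and NSF takes it apart afterwards. In cortical neurons many of these genes are switched on before the first synapses form, as the axon grows out.

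The RNA came from neurons of the neocortex of C57BL/6 mouse embryos at embryonic day 14, dissociated and grown as primary cultures. The 3 groups of 2 libraries each were wild-type neurons after 3 days in vitro (DIV3), neurons labelled Ptbp2 KO after 1 day in vitro (DIV1), and wild-type neurons at DIV1. At DIV1 the neurites are still alike, and around DIV3 one of them starts to grow out as the axon. PTBP2 is a neuronal RNA-binding protein that regulates splicing. All cultures shared the same strain, age, plating density and media, with serum in the plating medium, and the sources used here describe neither the Ptbp2 allele nor the sex of the embryos. The submitters call the 2 libraries of a group biological replicates but name no separate animals, dissections or culture dates. The p-values here thus reflect how far the 2 libraries of a group lie apart, pooled over all 3 groups. The KO libraries therefore enter the p-values of the comparison over time too, and the spread may be technical.

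Libraries held between 39104879 and 75522198 expected counts, that is, reads as RSEM assigned them to genes. CPM stands for counts per 1000000 of a library, adjusted by TMM factors between 0.95 and 1.04. The test was edgeR's quasi-likelihood test on 16847 genes, and called means an adjusted p (Benjamini-Hochberg, over all of them) under 0.05. The value after ± is the SE of a log2 fold change. Ptbp2 itself had 474 and 514 CPM in the libraries labelled KO, against 465 and 429 CPM in wild type at DIV1 (0.14 ± 0.09, adjusted p = 0.413, edgeR). Counting all exons together cannot check a deletion that leaves most of the transcript in place, so KO denotes the label. Pan-neuronal markers (8 genes such as Tubb3 and Map2) summed to between 5766 and 9548 CPM in every library, while the 5 microglial and 4 endothelial markers summed to at most 5.68 and 3.87 CPM. Cycling cell markers (5 genes such as Mki67) and radial glia markers (8 genes such as Pax6) were present in every library, at 568 to 1255 CPM and 1790 to 2176 CPM.

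Snap25 is the member whose alternative exon is best known, and the 2 forms of its exon 5 are shown because they decide which SNAP25 protein is made. In mouse brain the 5a form prevails early in development and the 5b form later. The forms are used one at a time and lie side by side on chromosome 2, at chr2:136770057-136770174 for the transcript Snap25-201 and chr2:136769743-136769860 for Snap25-202 (GRCm38, plus strand). Both are coding and 118 bases long, and they differ at 31 bases, written in capitals, an identity of 73.7%. The codons of Snap25-202 place a pair of cysteines side by side, the mark of the 5a form, and Snap25-201 carries the 5b form.
Snap25-201 exon 5: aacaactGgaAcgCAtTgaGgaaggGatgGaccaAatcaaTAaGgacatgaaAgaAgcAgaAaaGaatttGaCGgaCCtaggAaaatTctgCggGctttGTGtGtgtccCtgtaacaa
Snap25-202 exon 5: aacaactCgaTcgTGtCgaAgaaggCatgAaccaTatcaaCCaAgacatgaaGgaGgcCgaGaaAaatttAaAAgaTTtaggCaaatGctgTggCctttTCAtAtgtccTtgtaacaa

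Syn1 has a promoter long known for neuron-restricted activity, and the stretch before its start is shown because Syn1 was among the members that rose most. The promoter table of RefSeq (GRCm38.p6) held 38 windows for 28 of the 34 genes. In 300 bases around each start, 2 motifs were searched on both strands: the left part of the RE1 element of the repressor REST (TCAGCACC) and the cyclic AMP response element (TGACGTCA). The RE1 part was found in 2 of the 38 windows, those of Syn1 and Unc13a, against 1.65% of all 32851 windows. The cyclic AMP element was found in 1 of the 38, that of Syn1, against 1.79% of all windows. These are matches of letters and not shown to be bound. The 164 bases at chrX:20921005-20921168 (minus strand), all before the gene as annotated, hold both motifs, in capitals and without overlap.
Syn1 upstream: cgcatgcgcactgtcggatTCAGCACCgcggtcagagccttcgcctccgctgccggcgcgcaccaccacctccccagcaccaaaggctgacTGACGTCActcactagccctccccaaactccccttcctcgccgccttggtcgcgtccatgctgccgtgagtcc

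Wild type at DIV3 was compared with wild type at DIV1, which asks how the release genes move while the axon forms. Of the 34 members, 24 rose and 4 fell, while 6 were not called. Of all genes tested, 19.8% were called higher and 16.4% lower. Where groups of called genes are described below as not overlapping, the calls rest on the same values, so this adds no support. The median log2 fold change of the members was 0.70, against -0.02 over all genes tested. In bulk RNA, fewer cells of a type and less RNA per cell cannot be told apart, and this holds for every comparison here. Members rose in each of the 7 roles, and the 4 that fell were the vesicle protein gene Synpr, the SNARE gene Vamp1, the priming factor gene Unc13b and the transporter gene Slc17a6. Longer transcripts had higher fold changes in this comparison, with medians over all genes between -0.16 in the shortest of 5 length classes and 0.15 in the longest. With that trend removed, 25 members rose and 5 fell, beside 3489 of 16795 genes called higher and 3913 called lower. The median log2 fold change of the members was then 0.51, against -0.04 over all genes.

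**Figure D1:**
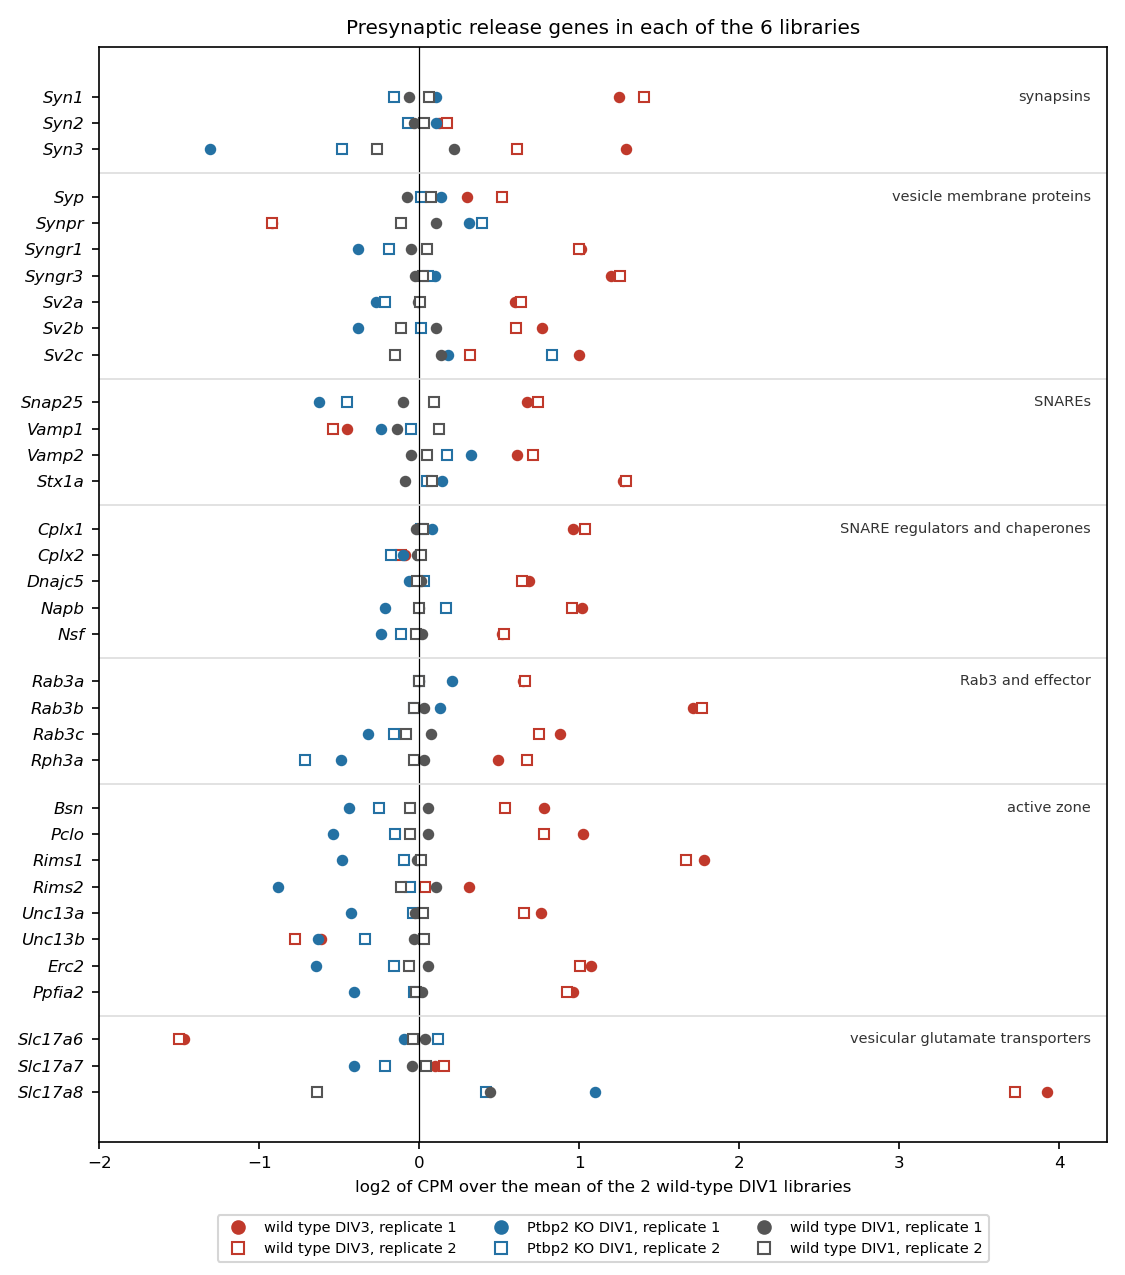
Each point is 1 library, and the horizontal axis gives the log2 ratio of a gene's CPM to the mean of the 2 wild-type DIV1 libraries. Filled circles are replicate 1 and open squares replicate 2 of wild type DIV3 (red), Ptbp2 KO DIV1 (blue) and wild type DIV1 (grey). The DIV3 points lie right of the line for most genes, with member medians of 0.77 and 0.66 in the 2 libraries, whereas those of the KO libraries are -0.24 and -0.05.

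Among the synapsins, vesicle coat proteins that tether vesicles to one another, Syn1 alone was called. Syn1 (chromosome X, 20860511 to 20921004) stood at 154 and 172 CPM at DIV3, against 62.0 and 67.6 CPM at DIV1. The DIV3 libraries lay well above both DIV1 libraries, 2.51-fold higher (1.33 ± 0.11, adjusted p = 0.000309, edgeR). Syn2, the most abundant synapsin gene that did not pass, had 64.1 and 66.5 CPM at DIV3, against 57.5 and 60.2 CPM at DIV1 (0.15 ± 0.08, adjusted p = 0.204, edgeR). Its groups did not overlap, but the distance was small. Syn3 had 23.0 and 14.4 CPM at DIV3, against 10.9 and 7.84 CPM at DIV1. Its DIV3 libraries differed widely, and a log2 fold change of 1.00 ± 0.33 missed the threshold (adjusted p = 0.0506, edgeR), although DESeq2 called it higher.

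Of the 7 other vesicle membrane genes, 5 rose and 1 fell. Syngr3 and Syngr1, genes of synaptogyrins, vesicle proteins with multiple membrane spans, rose most. Another synaptogyrin gene, Syngr2, is not among the members and was called lower (-0.67 ± 0.17, adjusted p = 0.021, edgeR). Syngr3 (chromosome 17, 24685092 to 24689955) had 101 and 105 CPM at DIV3, against 43.2 and 44.9 CPM at DIV1 (1.23 ± 0.07, adjusted p = 0.000113, edgeR). Syngr1 (chromosome 15, 80091334 to 80119501) had 134 and 133 CPM at DIV3, against 64.4 and 68.8 CPM at DIV1 (1.00 ± 0.09, adjusted p = 0.000364, edgeR). In both genes the replicates were close and the groups far apart. Sv2a, which encodes the SV2 glycoprotein that binds the drug levetiracetam, had 193 and 199 CPM at DIV3, against 127 and 128 CPM at DIV1 (0.62 ± 0.07, adjusted p = 0.000757, edgeR). Its relative Sv2b had 42.4 and 37.9 CPM at DIV3, against 26.8 and 23.1 CPM at DIV1 (0.69 ± 0.16, adjusted p = 0.0142, edgeR). Sv2b lost its call without wild-type DIV1 replicate 2 (adjusted p = 0.110) or DIV3 replicate 1 (adjusted p = 0.0957), so this call rested on few libraries. Sv2c, the only gene of this role that was not called, had 6.19 and 3.85 CPM at DIV3, against 3.40 and 2.79 CPM at DIV1 (0.71 ± 0.30, adjusted p = 0.103, edgeR).

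Syp encodes synaptophysin, an abundant protein of the synaptic vesicle membrane and the partner of synaptobrevin. It had 274 and 318 CPM at DIV3, against 211 and 234 CPM at DIV1, a modest difference with groups that did not overlap (0.41 ± 0.10, adjusted p = 0.0206, edgeR). The call was lost without wild-type DIV1 replicate 1 (adjusted p = 0.168), DIV1 replicate 2 (0.0730) or DIV3 replicate 2 (0.149), and with scaling by library totals (0.0588). Synpr, named after its values were seen as one of the 4 that fell, encodes the related synaptoporin. It had 4.72 and 4.71 CPM at DIV3, against 9.59 and 8.25 CPM at DIV1 (-0.92 ± 0.12, adjusted p = 0.00179, edgeR). The paralogs therefore moved in opposite directions, at very different levels.

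All 4 SNARE genes were called, 3 higher and 1 lower. Stx1a (chromosome 5, 135023482 to 135051100), the gene of the plasma membrane SNARE syntaxin-1A, had 81.3 and 82.4 CPM at DIV3, against 31.7 and 35.6 CPM at DIV1 (1.28 ± 0.09, adjusted p = 0.000174, edgeR). Snap25 had 294 and 308 CPM at DIV3, against 172 and 196 CPM at DIV1 (0.71 ± 0.10, adjusted p = 0.00189, edgeR). The vesicle SNARE gene Vamp2, synaptobrevin-2, had 323 and 345 CPM at DIV3, against 203 and 218 CPM at DIV1 (0.66 ± 0.09, adjusted p = 0.0016, edgeR). In these genes every DIV3 library was above every DIV1 library. Vamp1, the synaptobrevin best known from spinal cord and brainstem, went the other way, with 5.35 and 5.03 CPM at DIV3, against 6.65 and 7.99 CPM at DIV1 (-0.49 ± 0.14, adjusted p = 0.0351, edgeR). Vamp1 was named after its values were seen, and leaving out any of the 4 wild-type libraries ended its call (adjusted p between 0.0636 and 0.240).

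Of the SNARE regulators and chaperones, 4 of 5 rose. Cplx1 (chromosome 5, 108518554 to 108550024), which encodes complexin-1, had 150 and 158 CPM at DIV3, against 75.8 and 78.1 CPM at DIV1 (1.00 ± 0.07, adjusted p = 0.000187, edgeR). Its paralog Cplx2 was the only gene of this role that was not called, with 254 and 249 CPM at DIV3, against 267 and 272 CPM at DIV1 (-0.10 ± 0.07, adjusted p = 0.302, edgeR). Complexin-1 and complexin-2 both bind the assembled SNARE complex. Cplx2 was called lower with scaling by library totals and with the length trend removed (-0.28, adjusted p = 0.0383). Napb, the neuronal SNAP that brings NSF to used SNARE complexes, had 133 and 127 CPM at DIV3, against 65.5 and 65.5 CPM at DIV1 (0.99 ± 0.12, adjusted p = 0.00133, edgeR). Dnajc5, the gene of the vesicle chaperone cysteine string protein, had 401 and 389 CPM at DIV3, against 251 and 247 CPM at DIV1 (0.67 ± 0.08, adjusted p = 0.000904, edgeR). The ATPase gene Nsf had 88.7 and 89.5 CPM at DIV3, against 63.0 and 61.2 CPM at DIV1 (0.52 ± 0.07, adjusted p = 0.00224, edgeR). All of the called genes of this role had groups that did not overlap, but they were called on these values, so this adds no support.

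The 3 Rab3 GTPase genes, whose proteins ride on vesicles and recruit active zone and vesicle effectors, rose together with the effector Rph3a. Rab3b (chromosome 4, 108879063 to 108943324) rose most, with 53.4 and 55.5 CPM at DIV3, against 16.6 and 15.9 CPM at DIV1 (1.74 ± 0.10, adjusted p = 0.00012, edgeR), or 3.35-fold. Rab3c had 329 and 300 CPM at DIV3, against 188 and 169 CPM at DIV1 (0.82 ± 0.10, adjusted p = 0.00101, edgeR). Rab3a, known as the main Rab3 of brain synapses, had 235 and 237 CPM at DIV3, against 150 and 150 CPM at DIV1 (0.66 ± 0.09, adjusted p = 0.00159, edgeR). Rab3b thus had the highest fold change of the Rab3 genes. Rph3a, the gene of rabphilin-3A, had 26.2 and 29.6 CPM at DIV3, against 19.0 and 18.2 CPM at DIV1 (0.59 ± 0.12, adjusted p = 0.0100, edgeR). It lost its call without DIV1 replicate 1 (adjusted p = 0.0623), DIV1 replicate 2 (0.0964) or DIV3 replicate 2 (0.0843).

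Active zone proteins form the dense matrix at which vesicles dock and are primed, and 6 of their 8 genes rose. Rims1 (chromosome 1, 22286251 to 22805994), whose protein links Rab3 to calcium channels and Munc13, had 60.5 and 55.8 CPM at DIV3, against 17.4 and 17.7 CPM at DIV1 (1.73 ± 0.14, adjusted p = 0.000301, edgeR). Rims2, the only gene of this role that was not called, had 15.6 and 12.9 CPM at DIV3, against 13.6 and 11.6 CPM at DIV1 (0.18 ± 0.26, adjusted p = 0.615, edgeR). The Rims1 groups were 3.31-fold apart and the Rims2 groups overlapped. Erc2 (chromosome 14, 27622428 to 28478537), the gene of the scaffold ELKS2 or CAST, had 133 and 127 CPM at DIV3, against 65.7 and 60.4 CPM at DIV1 (1.04 ± 0.15, adjusted p = 0.00252, edgeR). Ppfia2, the gene of the scaffold liprin-α2, had 167 and 162 CPM at DIV3, against 86.9 and 84.5 CPM at DIV1 (0.94 ± 0.12, adjusted p = 0.00143, edgeR).

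Bassoon and Piccolo, the giant scaffolds that axons ship in precursor vesicles, rose as well. Pclo had 123 and 104 CPM at DIV3, against 62.6 and 57.8 CPM at DIV1 (0.91 ± 0.14, adjusted p = 0.00339, edgeR). Bsn had 138 and 117 CPM at DIV3, against 83.6 and 77.3 CPM at DIV1 (0.67 ± 0.11, adjusted p = 0.00411, edgeR). These are the members with the longest transcripts, and with the length trend removed the log2 fold changes were 0.53 for Pclo and 0.34 for Bsn (adjusted p = 0.000241 and 0.00604, edgeR). Without DIV1 replicate 2 Bsn had an adjusted p of 0.0506. The Munc13 proteins, which prime vesicles by opening syntaxin, split by paralog. Unc13a had 174 and 161 CPM at DIV3, against 101 and 104 CPM at DIV1 (0.71 ± 0.13, adjusted p = 0.00554, edgeR; 0.0514 without DIV1 replicate 1). Unc13b, named after its values were seen, had 56.6 and 50.5 CPM at DIV3, against 84.6 and 88.5 CPM at DIV1 (-0.69 ± 0.11, adjusted p = 0.00401, edgeR). The difference between these paralogs was not tested as such.

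The vesicular glutamate transporters showed the widest range. Slc17a6 (chromosome 7, 51622006 to 51671119), the gene of VGLUT2, had 15.6 and 15.3 CPM at DIV3, against 44.3 and 42.2 CPM at DIV1. It fell by 1.48 ± 0.11 on the log2 scale (adjusted p = 0.000187, edgeR), the largest decrease among the members. Slc17a7, the gene of VGLUT1, which prevails in mature cortex, was the only transporter gene that was not called. It had 41.8 and 43.5 CPM at DIV3, against 37.9 and 40.2 CPM at DIV1 (0.13 ± 0.10, adjusted p = 0.349, edgeR). Slc17a8 (chromosome 10, 89574020 to 89621253), the gene of VGLUT3, which is found in few cortical neurons, had 134 and 60 counts at DIV3, against 8 and 4 counts at DIV1. In CPM these were 1.86 and 1.62 at DIV3, against 0.166 and 0.0786 at DIV1 (3.82 ± 0.38, adjusted p = 0.00058, edgeR). VGLUT3 therefore had the highest fold change of the 34 genes and also the lowest level.

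**Figure D2:**
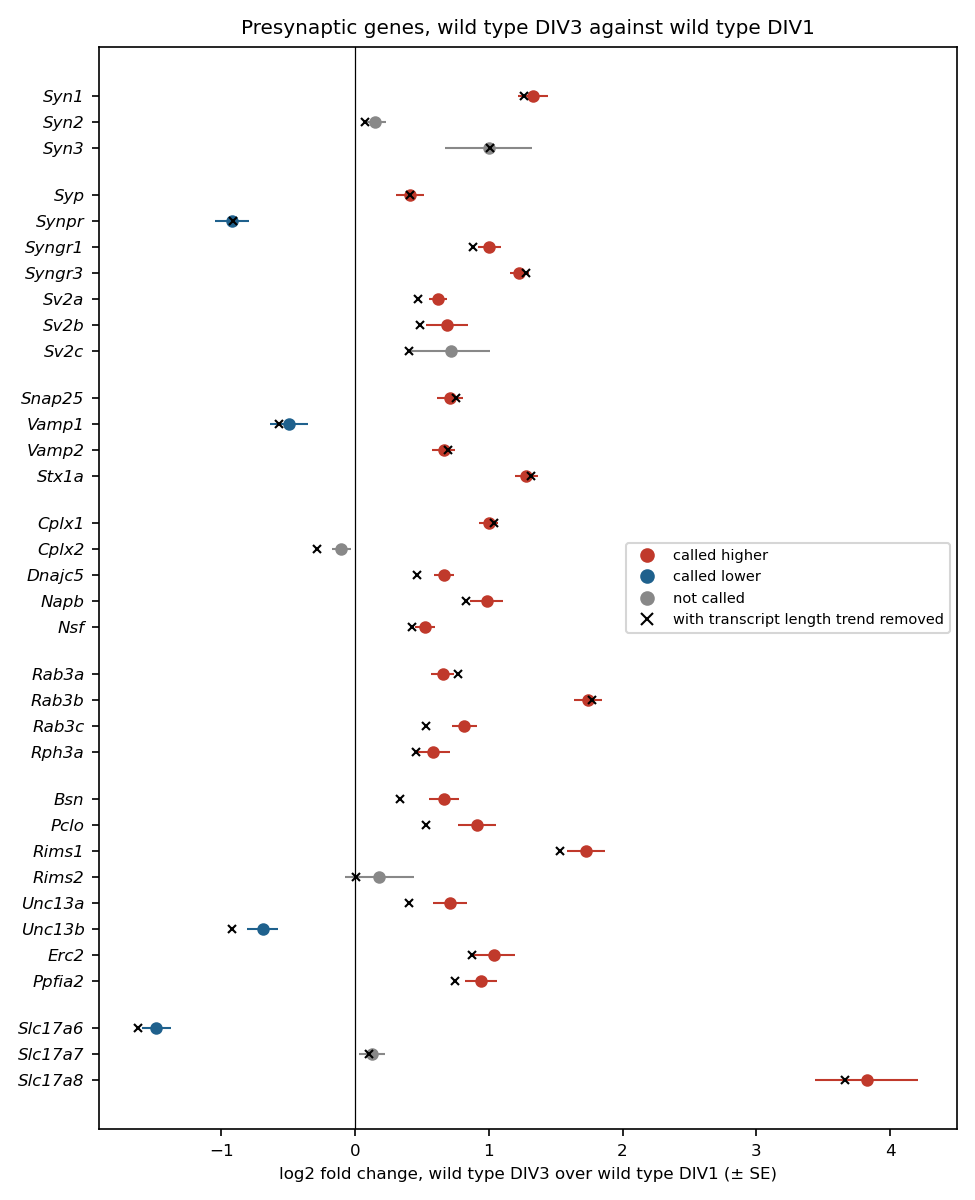
Points give the log2 fold change of wild type DIV3 over wild type DIV1 for each of the 34 genes, with bars of 1 SE (2 libraries per group). Red marks genes called higher, blue those called lower and grey those not called at an adjusted p under 0.05, and crosses give the value with the transcript length trend removed. Slc17a8 lies farthest right at 3.82 and Slc17a6 farthest left at -1.48.

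Of the 28 called members, 22 passed under every alternative tried, and the others were Bsn, Rph3a, Sv2b, Syp, Unc13a and Vamp1. Scaling by library totals moved the median of all genes to -0.13 and the share of higher genes among all called genes to 39.1%, from 54.7% with TMM. Under it 23 members rose and 5 fell, beside 2563 of 16847 genes called higher and 3996 called lower, and no member changed sign.

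The other comparison between members is of levels, which needs a correction for length, here CPM per kilobase of transcript. Rab3a had the highest mean at DIV3, 175 CPM per kilobase, against 111 CPM per kilobase in wild type at DIV1, followed at DIV3 by Vamp2 with 155 and Snap25 with 151 CPM per kilobase. Slc17a8 was lowest in both wild-type groups, with means of 0.394 CPM per kilobase at DIV3 and 0.0277 at DIV1. Within families, the distance between paralogs changed in some cases, and for Munc13 so did their order. Per kilobase, Slc17a6 had means of 3.79 at DIV3 and 10.6 at DIV1, while Slc17a7 had 15.4 at DIV3 and 14.1 at DIV1. VGLUT1 was thus ahead of VGLUT2 at both times, and far more so at DIV3. For the synapsins, Syn1 and Syn2 were close at DIV1, with 20.0 and 17.6 CPM per kilobase, and apart at DIV3, with 50.2 and 19.5. For Munc13, Unc13a had 18.5 CPM per kilobase at DIV3 and 11.3 at DIV1, while Unc13b had 8.74 at DIV3 and 14.1 at DIV1, so the order was turned round. Rims1 had 11.3 at DIV3 and 3.43 at DIV1, and Rims2 had 2.99 at DIV3 and 2.64 at DIV1. Vamp2 was above Vamp1 and Sv2a above Sv2b and Sv2c in every library.

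**Figure D3:**
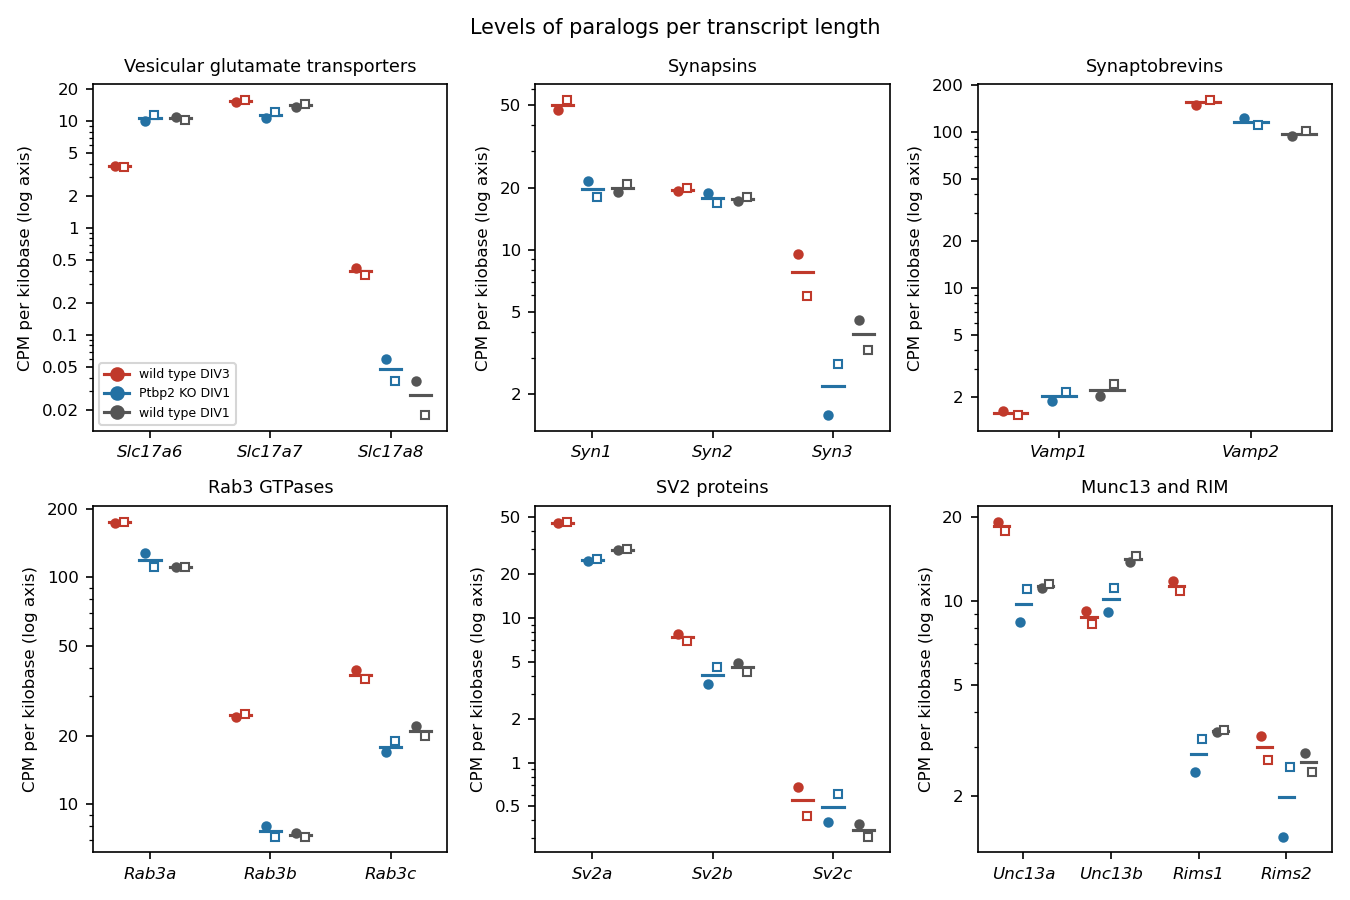
Vertical log axes give CPM per kilobase of transcript for paralogs in 6 families, with wild type DIV3 (red), Ptbp2 KO DIV1 (blue) and wild type DIV1 (grey) for each gene from left to right. Filled circles are replicate 1, open squares replicate 2 and bars the mean of 2 libraries. Slc17a6 lies below Slc17a7 in all groups and farthest below it at DIV3, and Unc13a passes Unc13b at DIV3.

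Another 64 genes of release and the vesicle cycle, not among the 34, were listed for comparison, and 63 of them were tested. At DIV3 45 rose, 4 fell and 14 were not called, with a median log2 fold change of 0.68. The 4 genes with the smallest adjusted p were the vesicle protein gene Syt4, the RIM gene Rims4, Amph, which encodes the endocytic protein amphiphysin, and the calcium sensor gene Syt1. Syt4 had 1082 and 1076 CPM at DIV3, against 297 and 279 CPM at DIV1 (1.90 ± 0.09, adjusted p = 7.09e-05, edgeR). Syt1, the sensor that triggers fast release, had 329 and 318 CPM at DIV3, against 114 and 106 CPM at DIV1 (1.55 ± 0.09, adjusted p = 0.000104, edgeR). Rims4 and Amph had log2 fold changes of 1.78 ± 0.09 and 1.48 ± 0.08. Itsn1, the gene of the endocytic scaffold intersectin-1, was the most abundant that did not pass (0.22 ± 0.13, adjusted p = 0.211, edgeR). The 4 that fell were Vamp3, Syngr2, Ppfia1 and Ppfia4, with log2 fold changes between -0.67 and -0.33. Vamp3, named after its values were seen like the other 3, encodes a synaptobrevin of other cell types as well, and had 54.4 and 58.5 CPM at DIV3, against 72.4 and 73.3 CPM at DIV1.

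Markers of cell types moved between the same libraries. The 8 pan-neuronal markers summed to 9324 and 9548 CPM at DIV3, against 6009 and 5943 CPM at DIV1, with 5 of 8 called higher and 1 lower. The 5 cycling markers summed to 573 and 568 CPM at DIV3, against 1228 and 1173 CPM at DIV1, all 5 called lower. The 4 intermediate progenitor markers, such as Eomes, summed to 237 and 228 CPM at DIV3, against 490 and 479 CPM at DIV1, all 4 called lower. DIV3 libraries thus held more pan-neuronal and less cycling and intermediate progenitor marker RNA. Of the 8 radial glia markers 5 were called lower, among them Vim and Pax6, and 2 higher, Fabp7 and Slc1a3. They summed to 1790 and 1831 CPM at DIV3, against 1926 and 1870 CPM at DIV1, and Fabp7 had the largest share of that sum at DIV3. The 7 glutamatergic markers summed to 2252 and 2069 CPM at DIV3, against 2516 and 2381 CPM at DIV1, with 2 called higher and 3 lower. The 8 interneuron markers summed to 182 and 169 CPM at DIV3, against 73.7 and 81.3 CPM at DIV1, with 4 called higher. The 4 astrocyte markers summed to 22.7 and 21.5 CPM at DIV3, against 8.39 and 9.56 CPM at DIV1, and the 7 pericyte and fibroblast markers to 53.9 and 54.2 CPM, against 16.4 and 17.7 CPM. The 6 oligodendrocyte lineage markers summed to 46.9 and 38.1 CPM at DIV3, against 24.0 and 24.6 CPM at DIV1, with Olig1, Olig2 and Pdgfra called higher. The 4 erythroid markers, mostly globins, summed to 0.208 and 0.404 CPM at DIV3, against 14.1 and 8.98 CPM at DIV1, all 4 called lower. None of the markers was at 0 in all libraries, and the part of these shifts in the rise of the release genes was not tested.

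The neurons labelled Ptbp2 KO were compared with wild type, both at DIV1, which asks whether release genes depend on this splicing regulator before the axon forms. No member was called, and neither was any of the 16847 genes tested (0.0%). At an unadjusted p under 0.05 were 12 of the 34 members and 2475 of all genes, by edgeR. The median log2 fold change of the members was -0.15, against -0.00 over all genes tested, with 22 values below 0 and 12 above. With DESeq2, 3 members were called lower, Snap25, Rph3a and Unc13b, among 1.03% of all genes called lower. Without the filter on low counts, these 3 with Syn3 and Erc2 were called lower, among 2.09% of all genes. This comparison and the one over time share the wild-type DIV1 libraries.

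Snap25 had the smallest p among the members and was named after its values were seen, as were Rph3a and Unc13b. It had 120 and 135 CPM in the KO libraries, against 172 and 196 CPM in wild type (-0.53 ± 0.10, adjusted p = 0.227, edgeR). Both KO libraries lay below both wild-type libraries. With the length trend removed its value was -0.59 (adjusted p = 0.0763), and it was -0.45 without KO replicate 1 and -0.62 without KO replicate 2. Rph3a had 13.2 and 11.3 CPM in the KO libraries, against 19.0 and 18.2 CPM in wild type (-0.60 ± 0.12, adjusted p = 0.260, edgeR). Unc13b had 55.8 and 68.5 CPM in the KO libraries, against 84.6 and 88.5 CPM in wild type (-0.48 ± 0.11, adjusted p = 0.317, edgeR). The groups of these genes did not overlap, but the genes were picked on these values, so this adds no support. None passed in the test over all genes. Unc13b with the length trend removed was at -0.29.

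The other 9 members at an unadjusted p under 0.05 all had an adjusted p of 0.333. The lower ones were Syn3, Syngr1, Sv2a, Rab3c, Bsn, Erc2 and Slc17a7, and the higher ones were Vamp2 and Synpr. Syn3 had 3.79 and 6.71 CPM in the KO libraries, against 10.9 and 7.84 CPM in wild type (-0.83 ± 0.33), the lowest log2 fold change of the members. Sv2a had 106 and 110 CPM in the KO libraries, against 127 and 128 CPM in wild type (-0.24 ± 0.07). Synpr had 11.1 and 11.7 CPM in the KO libraries, against 9.59 and 8.25 CPM in wild type (0.35 ± 0.12). In each of these the groups did not overlap, but the genes were picked by a small p in this comparison, so this adds no support. The share of all genes whose groups did not overlap was not counted, in this comparison or over time.

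The gene of highest CPM in each role, averaged over all 6 libraries, had an adjusted p between 0.333 and 0.933 (edgeR). Syn1 had 69.7 and 58.1 CPM in the KO libraries, against 62.0 and 67.6 CPM in wild type (-0.02 ± 0.11). Syp had 245 and 225 CPM in the KO libraries, against 211 and 234 CPM in wild type (0.08 ± 0.10). In both the groups overlapped. Dnajc5 had 238 and 255 CPM in the KO libraries, against 251 and 247 CPM in wild type (-0.01 ± 0.08), again with overlap. Cplx2, which was above Dnajc5 in wild type at DIV1, had 252 and 238 CPM in the KO libraries, against 267 and 272 CPM in wild type (-0.14 ± 0.07). Vamp2 had 264 and 238 CPM in the KO libraries, against 203 and 218 CPM in wild type (0.25 ± 0.09), with no overlap. Rab3c had 143 and 160 CPM in the KO libraries, against 188 and 169 CPM in wild type (-0.24 ± 0.10). Rab3c carries one of the longer transcripts of the list, and with the length trend removed its value was 0.02. Unc13a had 76.4 and 99.8 CPM in the KO libraries, against 101 and 104 CPM in wild type (-0.22 ± 0.13). Slc17a7 had 29.5 and 33.7 CPM in the KO libraries, against 37.9 and 40.2 CPM in wild type (-0.30 ± 0.10). Slc17a6, the more abundant of the pair at DIV1 in CPM, had 40.5 and 46.9 CPM in the KO libraries, against 44.3 and 42.2 CPM in wild type (0.02 ± 0.10), with overlap.

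The active zone genes were the role with the lowest values. All 8 had log2 fold changes below 0, between -0.48 and -0.21, with a median of -0.33, and none was called. They are also long, with a median transcript of 5745 nt, against 4033 nt for the 34 members and 2680 nt for all genes tested. In this comparison the median log2 fold change over all genes was 0.22 in the shortest of 5 length classes (median 980 nt) and -0.19 in the longest (median 5906 nt). Among the members the trend was larger in KO replicate 1. For the 17 members with longer transcripts, the median difference from the wild-type DIV1 mean was -0.38 in KO replicate 1 and -0.06 in KO replicate 2. For the 17 with shorter transcripts it was 0.10 in replicate 1 and -0.05 in replicate 2. With the length trend removed, the median over the 34 members was -0.00 and no member was called. For the 17 members with longer transcripts it was -0.00 as well. The median of the active zone genes alone was not taken with the trend removed. Of these genes, Unc13b, Bsn and Erc2 stayed below 0 and Unc13a did not. The values of the other active zone genes with the trend removed are not given here.

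**Figure D4:**
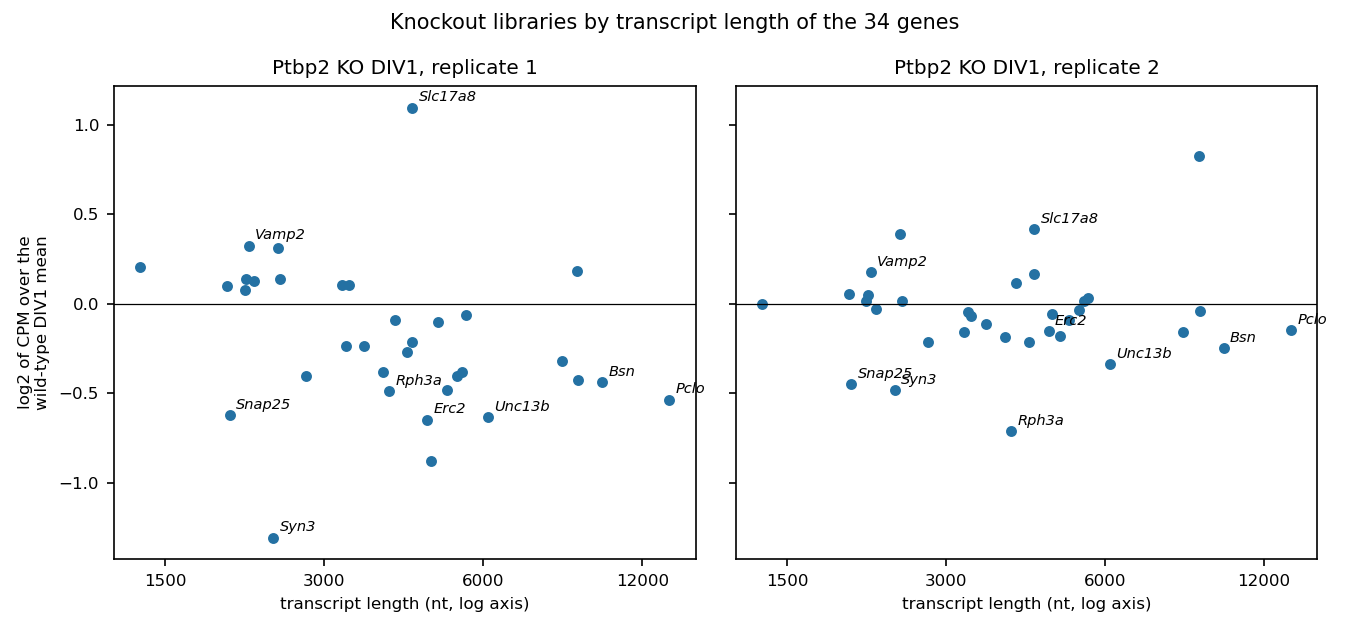
Each point is 1 of the 34 genes, placed by transcript length in nt (horizontal log axis) and by the log2 ratio of its CPM in a Ptbp2 KO library to the mean of the 2 wild-type DIV1 libraries (vertical axis), with KO replicate 1 left and replicate 2 right. Long transcripts such as Pclo and Bsn lie lower in replicate 1 than in replicate 2, while Snap25 lies below the line in both.

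The log2 difference between replicates had an SD over genes of 0.50 in the KO, against 0.39 in wild type at DIV3 and 0.38 at DIV1, so the KO libraries were the least alike. Without KO replicate 2, 18 members were called lower and 2, Vamp2 and Rab3a, higher, while 17.3% of all genes were called lower and 14.8% higher. Without KO replicate 1, no member was called, and 0.25% of all genes were. In each of these fits the KO arm is 1 library, assumed to vary like the other groups. With the length trend removed as well, chosen after seeing the data, 2 members were called lower without KO replicate 1, Snap25 and Rph3a (0.338% of all genes), and 7 without KO replicate 2 (8.3% of all genes). In the fit without KO replicate 2, Syn2, Vamp2 and Dnajc5 were called higher (13.7% of all genes). Snap25 was lower in both, at -0.48 without KO replicate 1 and -0.72 without KO replicate 2. Both fits share the wild-type DIV1 libraries, so they are not independent. Among the 63 other release genes tested, none was called either. At an unadjusted p under 0.05 were 12 of them, beside 2475 of all 16847 genes, by edgeR. Pan-neuronal markers summed to 5766 and 5829 CPM in the KO libraries, against 6009 and 5943 CPM in wild type, and cycling markers to 1255 and 1246 CPM, against 1228 and 1173 CPM. The 7 glutamatergic markers summed to 1989 and 2160 CPM in the KO libraries, against 2516 and 2381 CPM in wild type, with log2 fold changes below 0 in 7 of 7 and none called. The erythroid markers summed to 23.0 and 18.4 CPM in the KO libraries, against 14.1 and 8.98 CPM in wild type, with 4 of 4 above 0 and 3 at an unadjusted p under 0.05. The oligodendrocyte lineage markers summed to 20.0 and 22.3 CPM in the KO libraries, against 24.0 and 24.6 CPM in wild type, with 5 of 6 below 0 and 3 at an unadjusted p under 0.05. The part of these marker differences in the member values was not tested.

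Because PTBP2 regulates splicing, transcript shares within each gene were tested too, in 7645 genes with 2 or more transcripts of at least 5% share. A call needed an adjusted p under 0.05 and a share difference of at least 10 percentage points. Of the 34 members 23 could be tested, and none was called at DIV3 against DIV1 (0.458% of all genes tested) or in the KO libraries against wild type (0.562%). At an unadjusted p under 0.05 were 0 members over time and 1, Erc2, in the KO libraries, by edgeR's diffSpliceDGE. Over all 7645 genes these numbered 302 over time and 359 in the KO libraries. With limma's diffSplice 0 members were called in either comparison, with 4 of the 23 over time and 3 in the KO libraries at an unadjusted p under 0.05, beside 976 and 1306 of the 7645 genes.

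Snap25-201, with the 5b exon shown above, took 83.8% and 87.7% of Snap25 counts at DIV3, 95.2% and 88.9% in the KO libraries, and 86.5% and 89.8% in wild type at DIV1. Snap25-202, with the 5a exon, took 15.8% and 12.1% at DIV3, 4.7% and 11.0% in the KO libraries, and 13.2% and 10.1% in wild type at DIV1. The groups overlapped, and KO replicate 1 lay apart from the other libraries. These shares are not those of the exons alone. The last exon of Snap25-202 is annotated with 277 nt and that of Snap25-201 with 1354 nt, so reads from the long end of the mRNA count only for Snap25-201, whichever exon 5 they came with.

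Pclo, Erc2 and Rph3a were chosen after their values were seen. Pclo-201, the longer form of Piccolo mRNA (20084 nt), took 64.5% and 58.5% at DIV3, against 40.0% and 35.4% in wild type at DIV1. Pclo-204 (6738 nt) took 34.7% and 41.3% at DIV3, against 56.8% and 61.5% at DIV1. The groups did not overlap, but the gene was not called (unadjusted p = 0.165, diffSpliceDGE). Over all genes, longer transcripts had higher fold changes at DIV3, and the shares were not corrected for length. Erc2-201 took 1.1% and 3.3% in the KO libraries, against 20.2% and 21.8% in wild type, and Erc2-208 took 49.8% and 37.7%, against 18.6% and 22.8%. Erc2 had the smallest p of the members (adjusted p = 0.132, diffSpliceDGE). Rph3a-204 took 0.2% and 21.4% in the KO libraries, against 75.1% and 96.4% in wild type, and Rph3a-201 took 98.9% and 73.6%, against 19.8% and 0.0%. That is the widest gap of the members, 76.4 percentage points for Rph3a-201, and was not called (unadjusted p = 0.191, diffSpliceDGE). Without KO replicate 1, Rims1 was called (0.513% of all genes), and without KO replicate 2, Dnajc5, Syn2 and Erc2 were (8.73% of all genes), with 1 library in the KO arm each time.

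**Figure D5:**
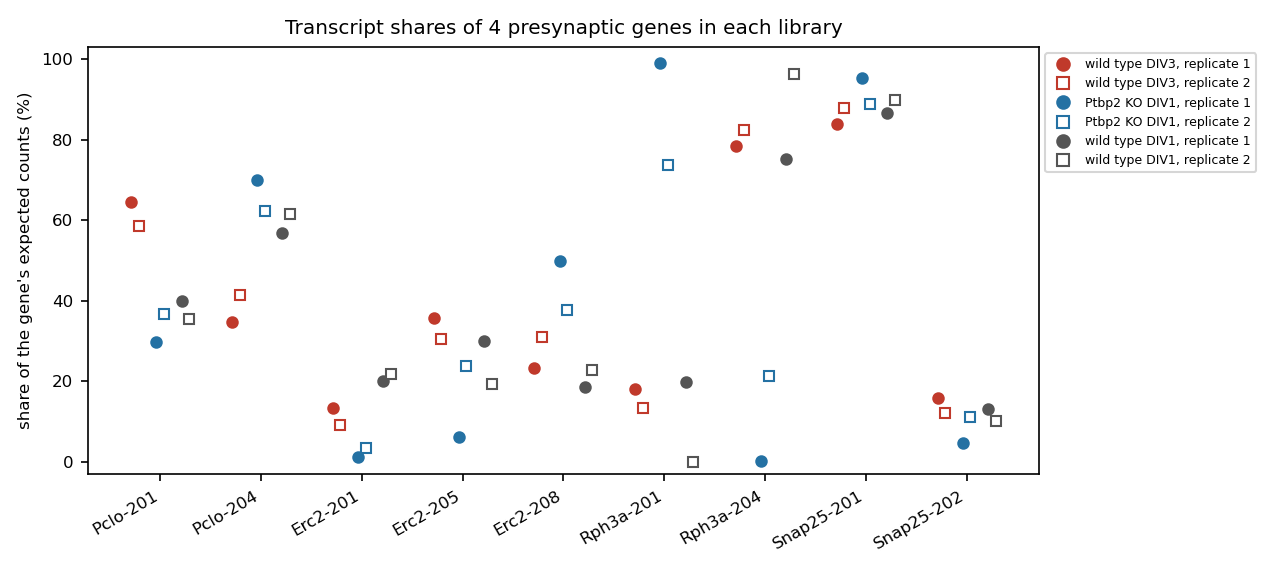
The vertical axis gives each transcript's share of its gene's expected counts in percent for 9 transcripts of 4 genes, with wild type DIV3 (red), Ptbp2 KO DIV1 (blue) and wild type DIV1 (grey) from left to right and 1 point per library (filled circles replicate 1, open squares replicate 2). Rph3a-204 lies at 0.2% and 21.4% in the KO libraries and above 75% in the others, and Pclo-201 is highest at DIV3.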

How the data were processed

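Gene and transcript tables of 6 libraries hold expected counts (read counts that need not be whole) as deposited by the authors, made with STAR and RSEM on GRCm38 (mm10), per the submitters' processing notes. Neither their versions nor the annotation release is given in the sources used here. Libraries were stranded total RNA, per the labels' protocols; whether counting used strand is not given, so antisense overlaps may share reads. RSEM's uncertainty in splitting reads among transcripts is not in the tables.

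Names, lengths and coordinates came from GENCODE M21 (GRCm38), which matched 99.5% of gene and 99.4% of transcript identifiers. A gene's length is the count-weighted mean of its transcripts. Expected counts were rounded, filtered with filterByExpr (minimum count 10) and TMM-scaled. They were tested with edgeR 4.0.16 (R 4.3.3, quasi-likelihood F test) with all 6 libraries in a fit with 3 residual degrees of freedom. SE is the absolute log2 fold change over the square root of F. Isoform usage was tested with diffSpliceDGE. DESeq2 1.42.0, limma 3.58.1, other scalings, no filter, a replicate block, removal of the length trend by loess (span 0.5) and leaving out each library were alternatives. The procedures were tested on simulated data.

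Members, lists and tests were chosen with earlier results of these data known. Per comparison, values per library are given for members called with a log2 fold change of at least 1.0 in size over time, or called at all in the KO, and for the most abundant member per role that did not pass. Values of further members were added after they were seen. Of the other release genes, up to 4 called ones, taken by smallest adjusted p, are named, with the most abundant that did not pass. Both Snap25 transcripts are given whether called or not.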

Additional observations from a re-analysis of the deposited data

How the results depend on the processing

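Of the values of single members over time, 475 under alternatives kept direction and side of the threshold, 19 crossed into it, 16 crossed out of it and none changed sign. For the 16 members that had an unadjusted p under 0.05 or the highest CPM of their role in the KO comparison, 197 values kept both, 29 crossed into the threshold and 14 changed sign. With the length trend removed, those that changed sign were Dnajc5 (0.17), Rab3c (0.024), Syn1 (0.045) and Unc13a (0.040). With it removed and without KO replicate 2, chosen after seeing the data, they were Bsn (0.024), Dnajc5 (0.23), Rab3c (0.10), Syn1 (0.20) and Unc13a (0.010). With it removed and without KO replicate 1 they were Dnajc5 (0.10) and Unc13a (0.066). When a library was left out, Dnajc5 lay between -0.061 (without KO replicate 2) and 0.034 (without KO replicate 1), and Syn1 between -0.16 (without KO replicate 1) and 0.10 (without KO replicate 2).

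Over time, 6088 genes were called, between 2743 and 8698 when a library was left out, and 9243 and 9297 with the length trend removed and without KO replicate 1 or 2. In the KO comparison 0 genes were called, against 1061 without the filter, 198 with DESeq2 and 25 with the length trend removed. Leaving out a library gave between 0 and 5549, and, with the trend removed too, 85 without KO replicate 1 and 3796 without KO replicate 2. Members called lower numbered 5 without the filter, 3 with DESeq2 and 0 to 18 when a library was left out, and those called higher 0 to 2. With the trend removed too, 2 were lower without KO replicate 1, and 7 lower and 3 higher without KO replicate 2. Members called for isoform usage in the KO numbered 0, and 0 to 3 when a library was left out, the 3 without KO replicate 2, where 699 of 8005 genes were called. The cause of these differences was not tested.

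The replicate numbers were not taken to pair the samples, since no label gives them a shared source: deviations of same-numbered libraries correlated at 0.38 between DIV3 and DIV1 of wild type, -0.09 between wild-type DIV3 and KO, and 0.04 between KO and wild-type DIV1. With the replicate block, 24 members rose and 3 fell over time, Vamp1 being lost, and 4702 genes were called; in the KO comparison 0 were called by edgeR, with 1473 at an unadjusted p under 0.05.

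With 2 libraries per group, differences that were small against the spread between libraries were beyond reach. For Slc17a8, Sv2c and other low genes, counts limit precision.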

Other observations

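In 3 further genes, transcript shares differed widely between the libraries of a group. Napb-202, annotated as a target of nonsense-mediated decay, took 30.7% and 0.0% of Napb counts in the KO libraries, against 0.6% and 0.9% in wild type at DIV1. Sv2b-201 took 74.3% and 12.6% in the KO libraries, against 0.0% and 18.6% in wild type at DIV1. Synpr-202 took 49.9% and 51.6% in the KO libraries, against 35.9% and 0.0% in wild type at DIV1. In Bsn the groups did not overlap: Bsn-201, the longer Bassoon mRNA, took 14.0% and 21.5% in the KO libraries, against 31.8% and 24.6% in wild type at DIV1. Over all genes, longer transcripts had lower fold changes in the KO comparison, and the shares were not corrected for length. These transcripts were chosen after their values were seen.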
